A study of Homo sapiens with 7 samples.

Results

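TNFRSF9, TNFRSF4, TNFRSF14, CD40, TNFRSF1B, LTBR, TNFRSF12A, TNFRSF11A, TNFRSF19 and RELT are receptors of the TNF receptor superfamily that have no death domain in their cytoplasmic tail. They were taken by symbol from the table of read counts, and all 10 were found among its 57189 genes. The study treated RH30 cells, an established human line of alveolar rhabdomyosarcoma (RMS), with the Smac mimetic BV6 to ask how the compound changes the transcriptome of these tumor cells. Of the 7 samples, 4 were untreated RH30 cells (replicates 1 to 4) and 3 were RH30 cells kept with 5 µM BV6 in growth medium for 24 h (replicates 2 to 4). All 7 carry the genotype label wt, and the study's methods describe its RH30 cells as expressing GFP and luciferase. Poly(A) RNA was sequenced, and the replicates are numbered here by the BC label in the sample titles. BV6 and untreated samples of 1 number carry the same BC label, and untreated replicate 1 has no BV6 partner. Other libraries of the study were not analysed here.

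As background, receptors of this family bind trimeric ligands of the TNF superfamily and recruit TRAF adaptors instead of the adaptors that lead to caspase-8. Several of them bring TRAF2 and TRAF3 together with the ubiquitin ligases cIAP1 and cIAP2 (genes BIRC2 and BIRC3), which in resting cells mark the kinase NIK (gene MAP3K14) for degradation. Smac mimetics such as BV6 bind IAP proteins and lead to the loss of cIAP1 and cIAP2, after which NIK can accumulate and process the NFKB2 product, so that NF-κB signaling starts below the receptors themselves.

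The total count per untreated sample was 77220882, 56684781, 59849682 and 62049652 for replicates 1 to 4. For BV6 it was 57464589, 59465798 and 54070030 for replicates 2 to 4. At these depths 3 counts, taken here as the lowest level that can be read, corresponded to between 0.0390 and 0.0557 CPM (counts scaled to 1000000 per TMM-normalized library), and this floor covers counting error only. Whether the mates of a read pair were counted singly is not stated. The totals exceed the number of reads that the study's methods give for any library, and 59.2% of the counts from 1 to 20 were even, so 3 counts may stand for fewer than 3 fragments. On the first principal component of log2 CPM, which held 35.9% of the variance, BV6 replicate 3 lay at 68.4 and the other 6 samples between -48.6 and 12.2. Results that rest on this sample are given with and without it. The study calls its samples biological replicates, but the labels do not describe the separate cultures behind them, so p-values measure the spread between these samples, part of which may be technical.

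Among 23124 genes with enough counts to be tested, edgeR's quasi-likelihood test after Benjamini-Hochberg adjustment called 104 at an adjusted p below 0.05, or 0.45% of them, with 91 higher with BV6 (0.394%) and 13 lower (0.0562%). Of the 10 receptor genes, 8 were tested, and TNFRSF4 and TNFRSF11A had too few counts. The test called 1 of the 8, TNFRSF9, which was up-regulated, and it called 0 of the 8 down. At an unadjusted p below 0.05 it had 1 receptor gene lower, TNFRSF19, and the DESeq2 Wald test called that gene. Of the 8, 3 were higher and 5 lower with BV6 in the sign of the log2 fold change. Over all 23124 genes tested, 1939 had an unadjusted p below 0.05 in edgeR's quasi-likelihood test, and 47.7% had a log2 fold change above 0. In bulk samples, more or fewer cells with a transcript and more or less of it per cell cannot be told apart. The median log2 fold change of the 8 was -0.25, beside -0.01 for all genes tested.

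Promoter sequences are shown for the receptor gene that was called, for the one with the next smallest p, and for TNFRSF14, whose promoter also holds a match to the consensus κB motif, the sequence that NF-κB dimers bind. They are from RefSeq on GRCh38.p14 and run 5′ to 3′ on the strand of the gene, from 250 bases before to 50 bases after a transcription start. The table of promoters held 9 windows for 7 of the 10 genes. Capitals mark every base covered by a match to the consensus κB motif on either strand, and matches can overlap. The TNFRSF9 window is chr1:7940790-7941089 on the minus strand, and 144 of its 300 bases are exonic in GENCODE 44. The TNFRSF14 window is chr1:2556121-2556420 on the plus strand, with 191 exonic bases. The TNFRSF19 windows are chr13:23570162-23570461, with 92 exonic bases, and chr13:23579110-23579409, with 51, both on the plus strand.
TNFRSF9: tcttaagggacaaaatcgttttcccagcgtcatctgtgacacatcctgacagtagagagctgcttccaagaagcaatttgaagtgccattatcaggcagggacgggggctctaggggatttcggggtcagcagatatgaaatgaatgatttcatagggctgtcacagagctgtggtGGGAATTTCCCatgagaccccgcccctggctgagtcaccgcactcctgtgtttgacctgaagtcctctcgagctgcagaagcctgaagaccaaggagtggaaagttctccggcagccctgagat
TNFRSF14: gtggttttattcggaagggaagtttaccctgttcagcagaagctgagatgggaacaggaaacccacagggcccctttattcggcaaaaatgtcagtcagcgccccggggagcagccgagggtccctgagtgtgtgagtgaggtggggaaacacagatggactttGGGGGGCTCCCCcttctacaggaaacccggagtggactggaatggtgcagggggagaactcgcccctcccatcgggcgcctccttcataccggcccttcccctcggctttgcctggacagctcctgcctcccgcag
TNFRSF19, the first start: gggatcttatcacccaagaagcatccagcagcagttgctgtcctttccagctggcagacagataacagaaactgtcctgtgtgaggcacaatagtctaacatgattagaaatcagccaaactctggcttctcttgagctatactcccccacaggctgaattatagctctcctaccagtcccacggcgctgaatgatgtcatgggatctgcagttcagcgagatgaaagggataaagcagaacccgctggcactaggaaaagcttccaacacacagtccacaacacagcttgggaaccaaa
TNFRSF19, the second start: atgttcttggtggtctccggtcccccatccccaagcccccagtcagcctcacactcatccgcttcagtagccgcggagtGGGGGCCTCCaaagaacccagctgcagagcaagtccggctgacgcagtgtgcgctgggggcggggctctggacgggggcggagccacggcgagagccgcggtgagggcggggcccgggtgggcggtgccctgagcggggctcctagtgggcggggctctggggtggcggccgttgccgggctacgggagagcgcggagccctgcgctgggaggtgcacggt

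In TNFRSF9, 2 overlapping matches on opposite strands formed a run of 11 bases that began 74 bases before the start. In TNFRSF14, 5 overlapping matches lay in a run of 12 bases that began 86 bases before the start. TNFRSF19 had 1 match, in the window of its second start, 171 bases before it. The windows of TNFRSF1B, LTBR, TNFRSF11A and RELT had 0 matches. In all, 3 of the 9 windows held a match (33.3%), beside 3956 of 35116 promoters of this length (11.3%). A match describes the letters of a window and not a bound site, and whether a match bears on the values with BV6 was not tested. The windows also differed in base composition, with a GC content of 52.3% in TNFRSF9, 60.3% in TNFRSF14 and between 72% and 82.3% in TNFRSF1B, LTBR, TNFRSF11A and both RELT windows, where the median of all promoters was 58.7%. The TNFRSF19 windows stood apart from each other, at 49.0% for the first start and 72.7% for the second.

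The costimulatory receptors TNFRSF9, TNFRSF4, TNFRSF14 and CD40 are best known from lymphocytes and antigen-presenting cells, where they prolong or strengthen activation. TNFRSF9, a receptor induced on activated T and NK cells, was the member that BV6 up-regulated. In untreated cells its level was 2.45, 3.97, 1.76 and 4.09 CPM in replicates 1 to 4, from 189, 223, 106 and 253 counts. With BV6 it was 24.5, 15.0 and 27.8 CPM in replicates 2 to 4, from 1375, 921 and 1496 counts. Every BV6 sample lay above every untreated sample, and the lowest BV6 sample, replicate 3, was well clear of the highest untreated one. Mean CPM was 3.07 ± 1.15 without BV6 and 22.4 ± 6.63 with it (SD, n = 4 and n = 3), so that the log2 fold change was 2.87, with a standard error of 0.32 and a 95% interval from 2.16 to 3.58. In edgeR's quasi-likelihood test after Benjamini-Hochberg adjustment over all genes, the adjusted p was 0.00574, and the gene ranked 21 by p among the 23124 tested. Without BV6 replicate 3, the sample apart on the first component, the log2 fold change was 3.09 (edgeR's quasi-likelihood test after Benjamini-Hochberg adjustment, adjusted p = 0.00188).

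Between samples with the same BC label, TNFRSF9 was higher with BV6 in 3 of 3, with log2 ratios of CPM of 2.62, 3.09 and 2.76 for replicates 2, 3 and 4. These ratios lay closer together than the CPM values did, since replicate 3 was the lowest sample in both conditions. The gene lies at chr1:7915871-7943165 on the minus strand in GENCODE 44 on GRCh38, and no exon of another annotated gene overlaps its exons.

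The other costimulatory receptors were near the lower end of what these libraries could measure. TNFRSF14, the herpesvirus entry mediator, was at 0.792, 0.570, 0.465 and 0.550 CPM in untreated replicates 1 to 4 and at 0.819, 0.685 and 0.483 CPM in BV6 replicates 2 to 4. The groups overlapped over most of their range, and the log2 fold change was 0.15 with a standard error of 0.30 (edgeR's quasi-likelihood test after Benjamini-Hochberg adjustment, adjusted p = 0.916). It changed sign to -0.018 without BV6 replicate 2 and was 0.33 without untreated replicate 1. TNFRSF14 shares 826 of its exonic bases (13.3%) with the antisense gene TNFRSF14-AS1, and although the libraries were stranded, how the counting treated strand is not stated in the sources used here, so counts of the pair cannot be told apart.

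CD40, the receptor through which T cells license B cells and dendritic cells, had between 7 and 16 counts in the 7 samples, or 0.113 to 0.285 CPM. Its log2 fold change was 0.35 with a 95% interval from -0.59 to 1.29, which holds changes of either sign, and the groups overlapped (edgeR's quasi-likelihood test after Benjamini-Hochberg adjustment, adjusted p = 0.844). It was 0.05 without BV6 replicate 2 and 0.58 without BV6 replicate 4. TNFRSF4, a receptor of activated T cells, had 12, 4, 4 and 8 counts in untreated replicates 1 to 4 and 7, 8 and 10 in BV6 replicates 2 to 4. These are a few counts above the floor, and no fold change was fitted.

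**Figure D1:**
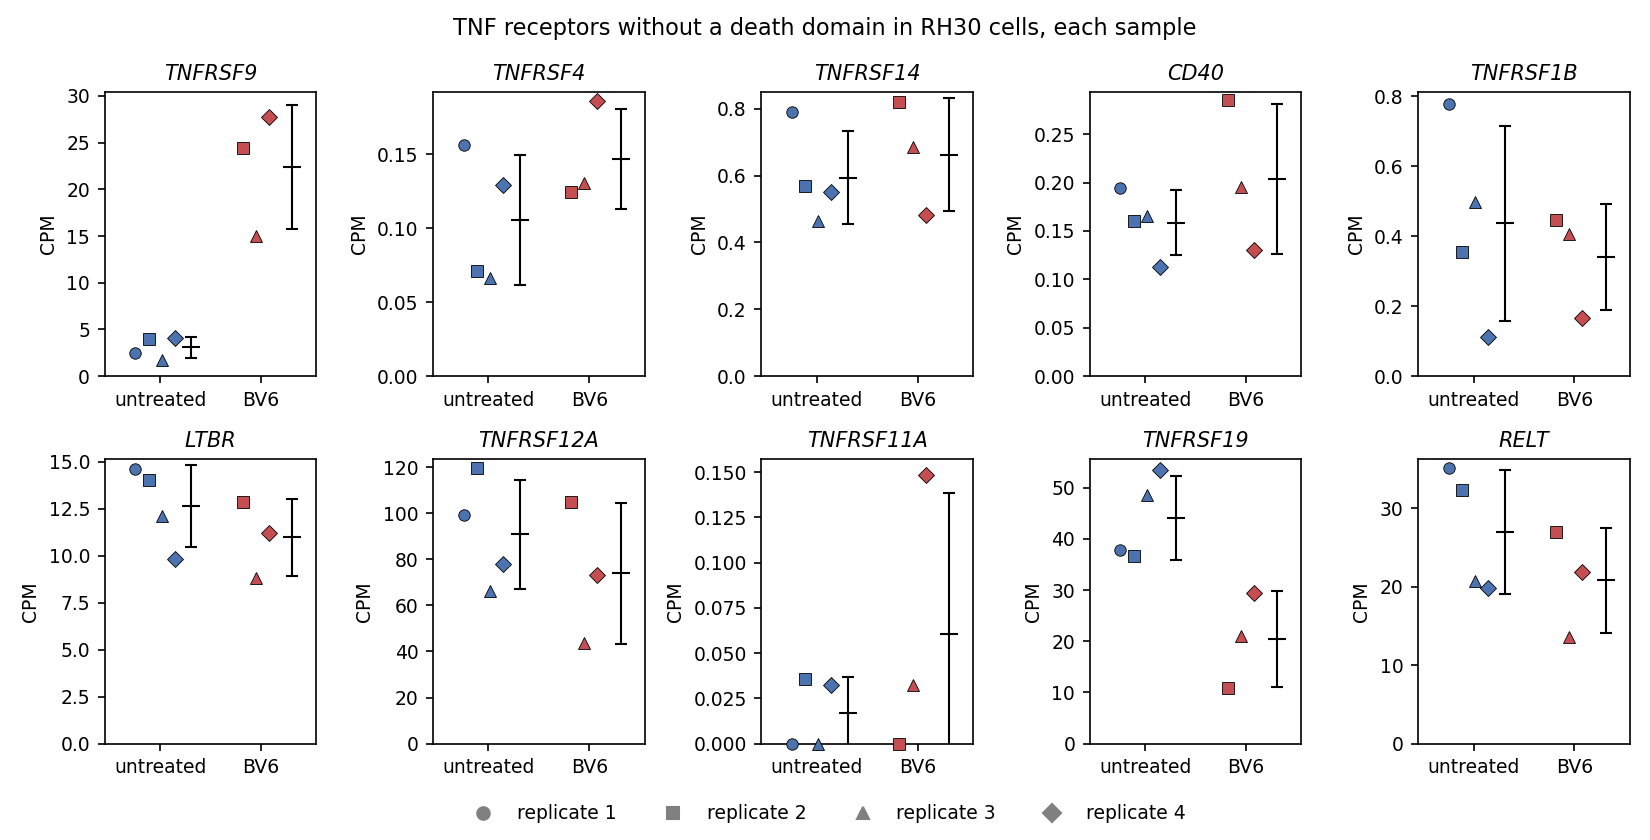
CPM of each of the 10 receptor genes, 1 panel per gene with its own axis from 0, for untreated (blue) and BV6 (red) RH30 samples. Each symbol is 1 sample, its shape gives the replicate, and the bar beside each group is the mean with its SD (n = 4 and n = 3). TNFRSF9 is the panel where the BV6 samples, at 15.0 to 27.8 CPM, sit above all untreated samples, and TNFRSF19 the panel where they sit below, at 10.8 to 29.4 CPM.

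The plot of CPM by sample shows the contrast within the family: the groups separate in the TNFRSF9 and TNFRSF19 panels and overlap in the other 8. Among all genes tested, 4.94% had every BV6 sample above every untreated sample and 3.89% had every BV6 sample below. Of the 8 receptor genes tested, 1 had each pattern.

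TNFRSF1B is a receptor of TNF, and LTBR is a receptor of lymphotoxin. TNFRSF1B, the second TNF receptor and one without the death domain of the first, was at 0.779, 0.356, 0.498 and 0.113 CPM in untreated replicates 1 to 4 and at 0.445, 0.408 and 0.167 CPM in BV6 replicates 2 to 4. The untreated samples alone spanned the whole range of the BV6 samples. Its log2 fold change was -0.37 with a standard error of 0.58 (edgeR's quasi-likelihood test after Benjamini-Hochberg adjustment, adjusted p = 0.883), and it turned to 0.088 without untreated replicate 1, the sample with the highest value, and to -0.68 without untreated replicate 4, the one with the lowest. The gene was thus detected in every sample, with 7 to 60 counts, and a direction could not be read from these samples.

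LTBR, the lymphotoxin β receptor, signals through TRAF3 and NIK in stromal and epithelial cells. It was at 14.6, 14.0, 12.1 and 9.83 CPM in untreated replicates 1 to 4 and at 12.9, 8.84 and 11.2 CPM in BV6 replicates 2 to 4. The 3 BV6 samples lay within or just below the untreated range, BV6 replicate 3 being the lowest. The log2 fold change was -0.21 with a standard error of 0.19 and a 95% interval from -0.63 to 0.21 (edgeR's quasi-likelihood test after Benjamini-Hochberg adjustment, adjusted p = 0.798). It was -0.33 without BV6 replicate 2 and -0.07 without BV6 replicate 3. LTBR shares 422 exonic bases (6.86%) with SCNN1A on the opposite strand.

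The remaining receptors, TNFRSF12A, TNFRSF11A, TNFRSF19 and RELT, are known mainly from tissues or have broad expression. TNFRSF12A, the receptor of TWEAK that is induced in growing and injured muscle, was the most abundant of the 10. It was at 99.4, 119.5, 66.2 and 78.1 CPM in untreated replicates 1 to 4 and at 104.8, 43.6 and 73.2 CPM in BV6 replicates 2 to 4. BV6 replicate 3 was the lowest of the 7 samples, and the other 2 BV6 samples lay inside the untreated range. The log2 fold change was -0.30 with a standard error of 0.29 (edgeR's quasi-likelihood test after Benjamini-Hochberg adjustment, adjusted p = 0.811). It was -0.63 without BV6 replicate 2 and -0.02 without BV6 replicate 3.

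RELT, a receptor first found in lymphoid tissue, showed the same order of samples in the BV6 group. It was at 35.1, 32.3, 20.7 and 19.8 CPM in untreated replicates 1 to 4 and at 27.0, 13.6 and 21.8 CPM in BV6 replicates 2 to 4. BV6 replicate 3 was again the lowest of the 7, and the log2 fold change was -0.38 with a standard error of 0.27 (edgeR's quasi-likelihood test after Benjamini-Hochberg adjustment, adjusted p = 0.757). It was -0.60 without BV6 replicate 2 and -0.14 without BV6 replicate 3. RELT shares 752 exonic bases (12.2%) with an annotated gene on the opposite strand. Transcripts of TNFRSF12A, RELT and TNFRSF14 are GC-rich, at 64.2%, 61.5% and 64.0% GC. When the trend of each library with the GC content of the genes was removed, an alternative chosen after seeing the data, their log2 fold changes were -0.06, -0.17 and 0.52, so that the change was smaller in TNFRSF12A and RELT and larger in TNFRSF14, and none of the 3 was called. That of TNFRSF1B became -0.11.

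TNFRSF19, known as TROY and expressed in embryonic and progenitor cells, had a pattern opposite to that of TNFRSF9. It was at 37.9, 36.6, 48.5 and 53.4 CPM in untreated replicates 1 to 4, from 2920, 2056, 2922 and 3301 counts. With BV6 it was at 10.8, 21.0 and 29.4 CPM in replicates 2 to 4, from 609, 1289 and 1585 counts. The groups did not overlap, and BV6 replicate 2 was the lowest sample. The means were 44.1 ± 8.15 CPM (SD, n = 4) and 20.4 ± 9.31 CPM (SD, n = 3), with a log2 fold change of -1.11, a standard error of 0.30 and a 95% interval from -1.78 to -0.44. The difference missed the threshold, with an adjusted p of 0.234 in edgeR's quasi-likelihood test after Benjamini-Hochberg adjustment over all genes. The DESeq2 Wald test called it with Benjamini-Hochberg adjustment (adjusted p = 0.0139), as did edgeR's quasi-likelihood test without a filter on low counts (adjusted p = 0.0237). Of 15 alternatives, 4 called TNFRSF19 and all 15 had it lower. The calls not yet named came with a block on the BC labels, without and with GC correction. Without BV6 replicate 3 the log2 fold change was -1.13 (edgeR's quasi-likelihood test after Benjamini-Hochberg adjustment, adjusted p = 0.365). Between samples with the same BC label, TNFRSF19 was lower with BV6 in 3 of 3, with log2 ratios of -1.76, -1.21 and -0.86 for replicates 2, 3 and 4. The gene lies at chr13:23570370-23676104 on the plus strand, and it had 609 counts or more in every sample.

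TNFRSF11A, the receptor RANK of osteoclast precursors, had 0 counts in untreated replicates 1 and 3 and in BV6 replicate 2. It had 2 counts in untreated replicates 2 and 4 and in BV6 replicate 3, and 8 in BV6 replicate 4. All but 1 of the 7 samples were therefore under the floor of 3 counts, and the transcript was not detectable in them at this depth.

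**Figure D2:**
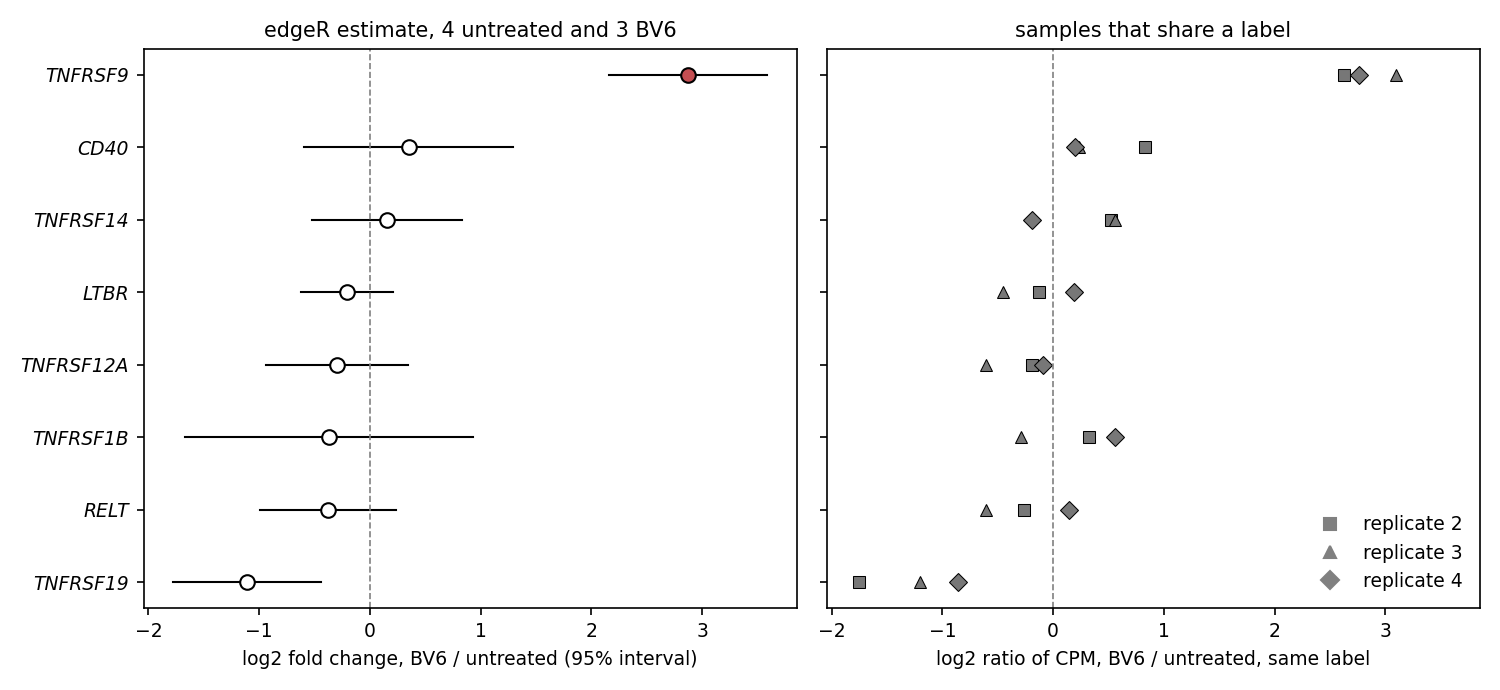
Left, the log2 fold change of the 8 tested receptor genes with BV6 over untreated (circles) and its 95% interval (lines), filled red where the adjusted p was below 0.05. Right, the log2 ratio of CPM for each pair of samples with the same label. TNFRSF9 stands at 2.87 with all 3 ratios between 2.62 and 3.09, TNFRSF19 at -1.11 with all 3 ratios below 0, and the intervals of the other 6 genes cross 0.

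The plot of fold changes shows that the ratios within a label kept 1 sign in TNFRSF9, CD40, TNFRSF12A and TNFRSF19. TNFRSF4, which is not in the plot, also kept 1 sign, at 0.81, 0.97 and 0.52 from 4 to 10 counts a sample. For CD40 they were 0.83, 0.24 and 0.20, from 7 to 16 counts a sample. For TNFRSF12A they were -0.19, -0.60 and -0.09. In TNFRSF14, TNFRSF1B, LTBR and RELT the ratios had mixed signs, and in each of LTBR, TNFRSF12A, TNFRSF1B and RELT replicate 3 gave the lowest ratio.

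Levels of different genes were compared as CPM per kb of exon. In untreated cells the order of mean levels was TNFRSF12A at 50.4 ± 13.1, TNFRSF19 at 8.63 ± 1.6, RELT at 4.36 ± 1.28, LTBR at 2.06 ± 0.35 and TNFRSF9 at 0.483 ± 0.181 CPM per kb (SD, n = 4). The sample ranges of these 5 did not overlap between neighbours. TNFRSF1B at 0.116 ± 0.074, TNFRSF14 at 0.0956 ± 0.0225, TNFRSF4 at 0.0535 ± 0.0223 and CD40 at 0.0282 ± 0.0060 CPM per kb followed, where each range overlapped that of its neighbour. TNFRSF11A, apart from CD40, was last at 0.00189 ± 0.00219 CPM per kb, a value made of 4 counts in all over the 4 samples.

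With BV6, TNFRSF9 moved from the fifth to the third place in this order. Its level was 3.53 ± 1.04 CPM per kb (SD, n = 3), with a sample range that overlapped those of TNFRSF19 at 4.0 ± 1.8 and RELT at 3.36 ± 1.09. TNFRSF12A stayed the most abundant at 41.0 ± 17.0 CPM per kb. As a share of the summed CPM per kb of the 10 genes, TNFRSF9 made up 0.730% ± 0.259 in untreated cells (SD, n = 4) and 6.67% ± 1.17 with BV6 (SD, n = 3), while TNFRSF12A made up 75.4% ± 4.63 and 74.6% ± 6.46. The receptor that BV6 up-regulated was therefore still a small part of the summed level of these 10 genes in RH30 cells.

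**Figure D3:**
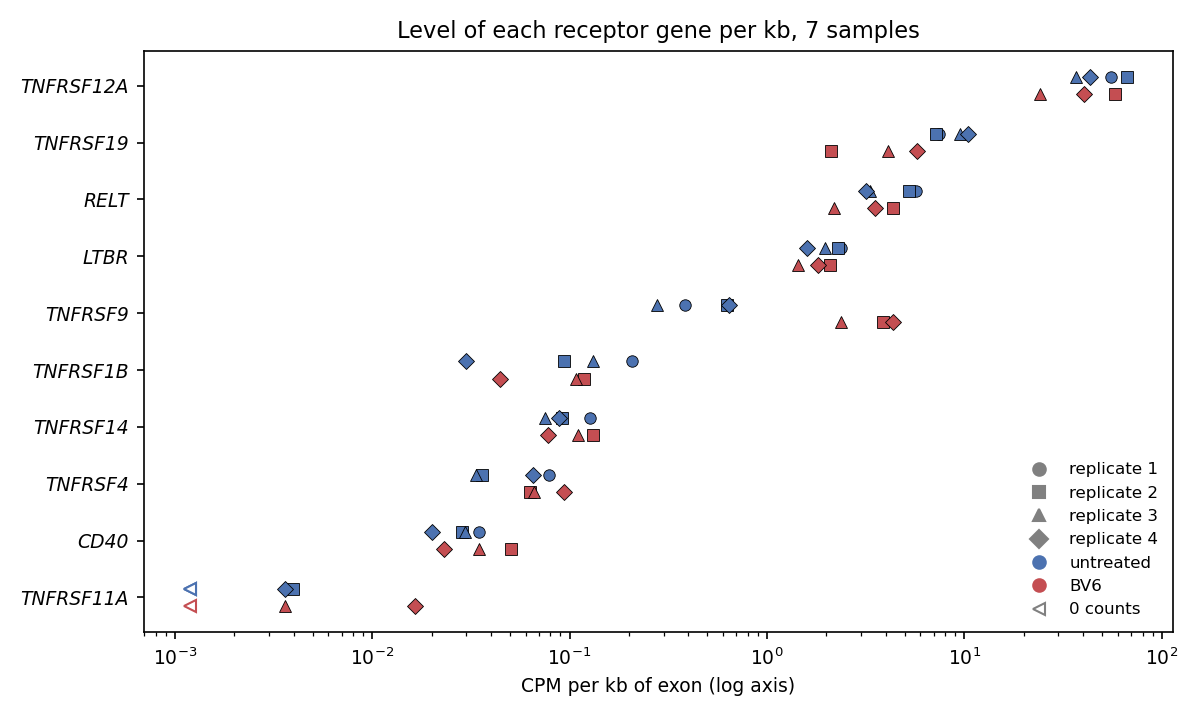
Level of each receptor gene in CPM per kb of exon, on a log axis, for untreated (blue) and BV6 (red) samples, ordered by the untreated mean. Each symbol is 1 sample, and open triangles at the left edge mark samples with 0 counts, which have no place on a log axis. Only TNFRSF9 has all 3 BV6 samples, at 2.36 to 4.37 CPM per kb, to the right of all its untreated samples.

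The plot of levels runs from TNFRSF12A at 50.4 to TNFRSF11A at 0.00189 CPM per kb in untreated cells. TNFRSF9 crosses in it from a place below LTBR to 1 above it. By the rule for likeness, the Pearson correlation of log2 CPM over the 7 samples among 17058 tested genes, the genes most like TNFRSF9 included ITPR2 (r = 0.992), a calcium channel of the endoplasmic reticulum, and AL358472.6 (r = 0.985). In all, 67 genes had an r above 0.95, and with 7 samples in 2 groups such values are a description. ITPR2 and AL358472.6 were not called, with means of 45.5 and 57.2 CPM and of 77.4 and 105.2 CPM.

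The other genes of the pathway were read from lists of ligands, transducers, inhibitors and response genes. The ligands of the 10 receptors were scarce. Of 9 ligand genes, 3 were tested and edgeR's quasi-likelihood test called 0, with 1 at an unadjusted p below 0.05 and 0 called by the DESeq2 Wald test. The ligand of TNFRSF9, TNFSF9, had 4, 6, 5 and 5 counts in untreated replicates 1 to 4 and 0, 0 and 6 in BV6 replicates 2 to 4, and so stayed near or below the floor in samples where its receptor had 106 counts or more. CD40LG and TNFSF11 had at most 3 counts in every sample. TNFSF4, the ligand of TNFRSF4, was at 0.13, 0.249, 0.166 and 0.275 CPM in untreated replicates 1 to 4 and at 0.410, 0.718 and 0.613 CPM in BV6 replicates 2 to 4. Its groups did not overlap, yet with a log2 fold change of 1.51 and a standard error of 0.37 it missed the threshold (edgeR's quasi-likelihood test after Benjamini-Hochberg adjustment, adjusted p = 0.191). The other tested ligands were LTA, with a log2 fold change of -0.19, and LTB, with -1.28 and an interval from -2.99 to 0.43.

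Of 7 further receptors of the family without a death domain, 4 were tested and edgeR's quasi-likelihood test called 0, with 0 at an unadjusted p below 0.05 and 0 called by the DESeq2 Wald test. Those tested were TNFRSF13C, the BAFF receptor, with log2 fold change -0.27, CD27 with 0.12, TNFRSF8 with 0.11 and EDA2R with -0.77. With 2 higher and 2 lower, their median was -0.08. When each sample was left out in turn, TNFRSF8 ran from -0.25 to 0.56 and CD27 from 0.04 to 0.22. TNFRSF13C and EDA2R stayed below 0 in these fits. None of the 4 had groups that separated. CD27 shares 562 of its exonic bases (42.5%) with the antisense gene CD27-AS1, and counts of the pair cannot be told apart.

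Of 18 transducers that act next to these receptors, all 18 were tested and 4 were up-regulated, TRAF1, BIRC2, BIRC3 and NFKB2. The adaptor gene TRAF1 rose to 145 CPM from 12.1, or by 3.58 in log2 fold change with a standard error of 0.33 (edgeR's quasi-likelihood test after Benjamini-Hochberg adjustment, adjusted p = 0.00341). BIRC3, which encodes the cIAP2 ligase, rose to 70.4 CPM from 2.44, or by 4.86 in log2 fold change with a standard error of 0.45 (adjusted p = 0.00341 in the same edgeR test with Benjamini-Hochberg adjustment). NFKB2, the precursor processed downstream of NIK, rose with a log2 fold change of 1.67 and BIRC2, which encodes cIAP1, with 1.54 (edgeR's quasi-likelihood test after Benjamini-Hochberg adjustment, adjusted p = 0.0110 and 0.0269). None of the 18 was called lower, with 0 at an unadjusted p below 0.05 and 0 by DESeq2. NFKB1, MAP3K14, RELB and TRAF3 were the 4 genes next by p, with log2 fold changes of 0.60, 0.83, 0.90 and 0.39, and did not pass. With a block on the BC labels NFKB1, MAP3K14 and RELB passed, and TRAF3 did not. In all, 15 were higher and 3 lower, and the median of the list was 0.17. Some of these signs were unstable, since CHUK kept its sign in 6 of 16 settings, IKBKB in 12, MAP3K7 in 13 and REL in 14. TRAF2, TRAF4, IKBKG and RELA kept theirs in 15, and the rest in all 16.

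Of 7 feedback inhibitors, 3 were up-regulated, and all 7 had a log2 fold change above 0, with a median of 0.86. NFKBIA, which holds NF-κB in the cytoplasm, rose to 107.2 CPM from 23.9 (log2 fold change 2.17). The deubiquitinase genes TNFAIP3 and CYLD rose with log2 fold changes of 0.86 and 0.96. The adjusted p of NFKBIA, TNFAIP3 and CYLD was 0.0116, 0.0145 and 0.0109 in edgeR's quasi-likelihood test after Benjamini-Hochberg adjustment. NFKBIE, TNIP1, OTUD7B and NFKBIB did not pass, at 1.12, 0.38, 0.16 and 0.15. When each sample was left out in turn, NFKBIB ran from -0.16 to 0.37 and TNIP1 from 0.17 to 0.59. All inhibitors but NFKBIB stayed above 0 in these fits. The DESeq2 Wald test called 4 of the 7 higher, NFKBIE being the one that edgeR's quasi-likelihood test did not call. A block on the BC labels also called NFKBIE. No inhibitor was called lower, with 0 at an unadjusted p below 0.05 and 0 by DESeq2.

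Of 18 NF-κB response genes, 11 were tested and 2 were up-regulated, the chemokine gene CCL5 and the protease gene MMP9. CCL5 was at 0.0779, 0.160, 0.0996 and 0.0647 CPM in untreated replicates 1 to 4 and at 1.64, 2.61 and 3.73 CPM in BV6 replicates 2 to 4, a log2 fold change of 4.72. MMP9 rose to a mean of 2.68 CPM from 0.382 (log2 fold change 2.80), and 18.4% of its exonic bases are shared with the antisense gene SLC12A5-AS1. The adjusted p was 0.00167 for CCL5 and 0.0363 for MMP9 in edgeR's quasi-likelihood test after Benjamini-Hochberg adjustment. BCL2L1, VCAM1, CD83 and SOD2 were next by p and did not pass, with log2 fold changes of -0.52, 2.32, 0.46 and 0.17. Of the 11, 9 were higher and 2 lower, with a median of 0.46. None was called lower by edgeR's quasi-likelihood test, while 1, BCL2L1, had an unadjusted p below 0.05 and was called by the DESeq2 Wald test. BCL2L1 shares 41.3% of its exonic bases with the antisense gene ABALON, whose log2 fold change was -0.49, and counts of the pair cannot be told apart. Over the 52 genes of the ligand, transducer, inhibitor and response lists, 39 were tested, 9 were called higher and 0 lower, with a median log2 fold change of 0.39. Promoters of 7 of these 9 were in the table, and 5 of the 7 genes held a match to the consensus κB motif, BIRC3, NFKB2, NFKBIA, TNFAIP3 and CYLD, beside 13 of the 35 genes with a promoter that were not called or not tested. By promoter this is 7 of 14 (50%) and 15 of 55 (27.3%), beside 11.3% of all promoters. The lists were drawn up around NF-κB signaling with earlier results of these data known, so these shares are a description and not a test. Several calls were lost when 1 sample was left out, in edgeR's quasi-likelihood test after Benjamini-Hochberg adjustment, while the log2 fold changes moved less. In that test BIRC2 lost its call without untreated replicate 1, 2, 3 or 4, with an adjusted p of 0.0892, 0.0558, 0.0993 and 0.101 and log2 fold changes from 1.44 to 1.61. NFKB2 and NFKBIA lost it without untreated replicate 4, with 0.0536 and 0.0579, at log2 fold changes of 1.65 and 2.14. TNFAIP3 lost it without untreated replicate 1, 3 or 4, with 0.0606, 0.0775 and 0.0536, and without BV6 replicate 2, with 0.0581, at log2 fold changes from 0.80 to 0.87. MMP9 lost it without untreated replicate 1, 2, 3 or 4, with 0.0959, 0.0923, 0.136 and 0.122, and without BV6 replicate 2 or 4, with 0.110 and 0.128, at log2 fold changes from 2.44 to 2.97. TNFRSF9, TRAF1, BIRC3, CYLD and CCL5 were called in all 7 of these fits.

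**Figure D4:**
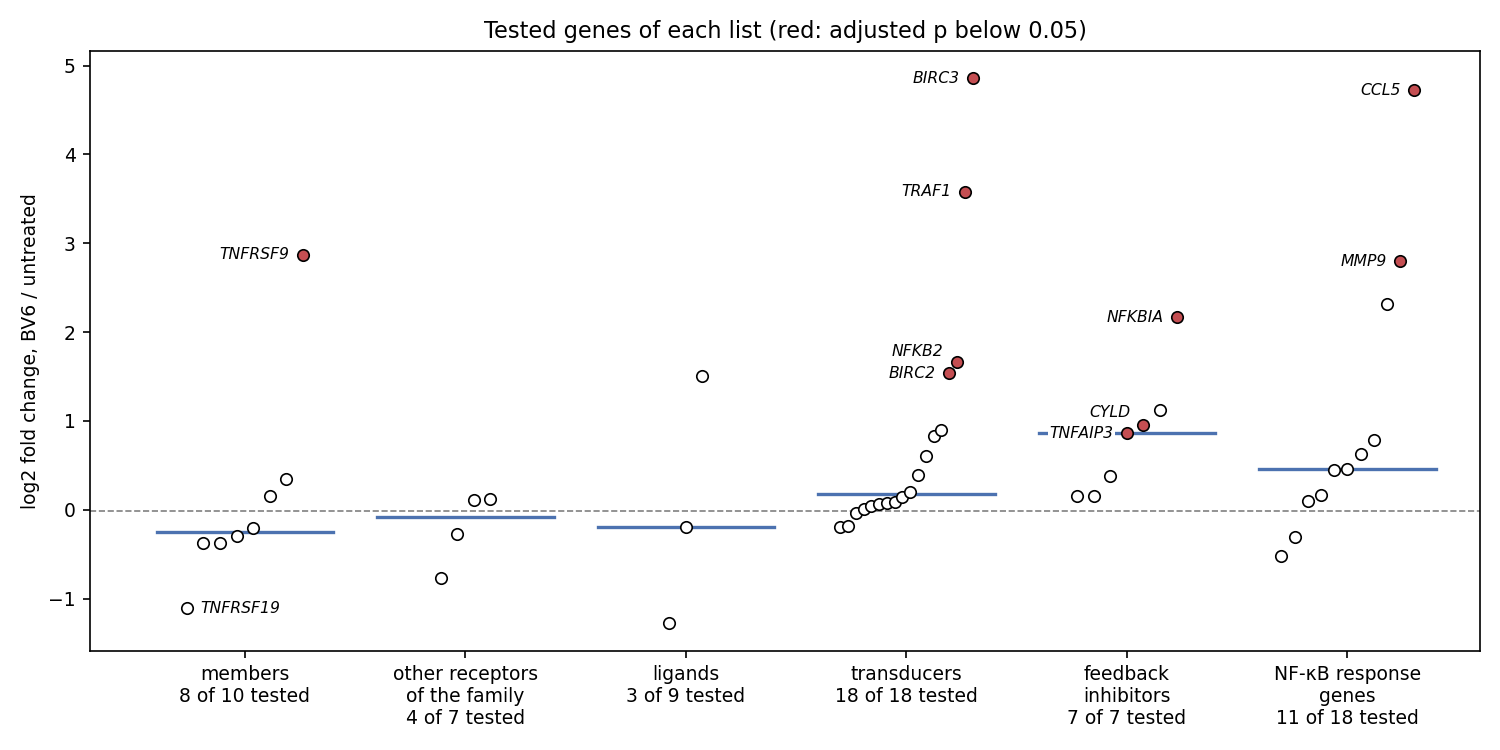
Log2 fold change with BV6 over untreated of every tested gene in 6 lists, 1 circle per gene, filled red and named where the adjusted p was below 0.05, with TNFRSF19 also named. Blue lines are the list medians and the dashed line is the median of all genes tested, -0.01. TNFRSF9 stands at 2.87 among receptors that lie around or below 0, while the inhibitor list as a whole lies above 0.

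The plot of lists places TNFRSF9, at 2.87, between the log2 fold changes of MMP9 at 2.80 and TRAF1 at 3.58. It is the single red circle among the receptor genes.

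The cell type of the samples was checked against markers. All 10 RMS and skeletal muscle markers were expressed above 1 CPM, with DES the most abundant at 768 CPM in untreated cells. Their summed level was 3028, 2114, 2254 and 2377 CPM in untreated replicates 1 to 4 and 1640, 1303 and 2372 CPM in BV6 replicates 2 to 4. None of the 10 was called in either direction by edgeR's quasi-likelihood test, with 3 lower at an unadjusted p below 0.05 and 0 called by the DESeq2 Wald test. Over all 23124 genes tested, 1939 had such an unadjusted p in edgeR's test, in either direction. Of the 10, 2 were higher and 8 lower, with a median log2 fold change of -0.35. BV6 replicates 2 and 3 had the lowest sums, and these were also the samples with the lowest TNFRSF19 level, and whether the 2 are linked was not tested.

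Since several of the receptors are best known from leukocytes, 11 leukocyte markers were read as well. Their summed level was 25.2, 28.8, 21.6 and 27.6 CPM in untreated replicates 1 to 4 and 28.4, 18.6 and 35.9 CPM in BV6 replicates 2 to 4. It was carried by CSF1R, the most abundant, with a mean of 13.4 CPM over the 7 samples, NKG7 with 8.52 and ITGAX with 2.56, and the other 8 were each below 1 CPM. PTPRC, the pan-leukocyte marker, had 11 to 58 counts, CD3E 3 to 19, MS4A1 2 to 8 and KLRD1 0 to 15. Of the 9 that were tested, 3 were higher and 6 lower, with a median log2 fold change of -0.08. None was called by edgeR's quasi-likelihood test, with 1 at an unadjusted p below 0.05, ITGAX. The DESeq2 Wald test called ITGAX, as did a block on the BC labels. ITGAX was at 1.22, 0.392, 1.34 and 1.65 CPM in untreated replicates 1 to 4 and at 2.44, 3.41 and 7.49 CPM in BV6 replicates 2 to 4.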

How the data were processed

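RNA-seq of 7 RH30 samples, 4 untreated and 3 with BV6, was used. The authors deposited raw counts per gene symbol for 57189 genes, and their processing notes name STAR 2.6.1d and GRCh38. Per the study's methods, reads were counted on a custom model that joins the isoforms of each Ensembl gene. The counting program, its strand setting and its treatment of mates are not stated in the sources used here. Of 98991 values from 1 to 20 in the deposited counts, 59.2% were even, beside 51.3% of higher values, and the cause was not tested.

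Genes were tested with edgeR 4.0.16 (quasi-likelihood F test on condition alone, TMM factors, genes kept by filterByExpr at its minimum count of 10) in R 4.3.3 with limma 3.58.1, and p was adjusted by Benjamini-Hochberg over 23124 genes. CPM used TMM-normalized library sizes. Log2 CPM for the components and for likeness used a prior count of 2. Exon lengths are unions of GENCODE 44 exons, joined by symbol for 36611 genes. Log2 fold changes have 95% intervals from the edgeR fit. Alternatives were a replicate block, DESeq2 1.42.0, RLE size factors, no filter, at least 10 counts in every sample, each sample left out, removal of each library's GC trend (loess, span 0.5) and counts halved and rounded up. The scripts were tested on simulated data. All 10 receptor genes are named whatever their result, and of the lists every called gene and those next by p. Genes most like TNFRSF9 needed a mean of at least 1 CPM. Of the genes of the marker list and of those most like TNFRSF9, 1 each is not reported here. The members and lists were chosen with earlier results of these data known.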

Additional observations from a re-analysis of the deposited data

Results flagged for a closer look

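The untreated group, the only one with 4 samples, was screened in 19 genes for a sample far from the others, and none was found.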

How the results depend on the processing

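TNFRSF9 was called higher with BV6 in all 16 settings, and its log2 fold change ran from 2.68 to 3.09 when each sample was left out. Of the log2 fold changes of the tested receptor genes under the alternatives, 108 kept their direction and side of the threshold, 4 passed it and 4 changed sign. The 4 that passed were TNFRSF19, at -1.27 with the replicate block, -1.13 with DESeq2, -1.12 without a low-count filter and -1.29 with GC correction and the block, so that 2 receptor genes were called in these settings and 1 in all others. It ran from -1.46 to -0.80 with each sample left out and was not called in these fits. The changes of sign were TNFRSF14 (-0.018 without BV6 replicate 2, from -0.018 to 0.33 over the samples left out) and TNFRSF1B (0.13 with the block, 0.28 with GC correction and the block, 0.088 without untreated replicate 1, from -0.68 to 0.088 over the samples left out).

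Among all genes, 104 were called, 218 with the replicate block (150 higher, 68 lower), 408 with DESeq2 (245 higher, 163 lower), 242 without a low-count filter (169 higher, 73 lower), and from 38 to 89 with 1 sample left out, where fewer samples remain. GC correction, on fewer genes, gave 205 (155 higher, 50 lower), and 1153 with the block (571 higher, 582 lower). The cause of the other changes was not tested. The GC correction and the halved counts were added after seeing the data.

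The block rests on shared BC labels, whose meaning the labels do not give. Of the lists it called 7 transducers higher instead of 4 (also NFKB1, MAP3K14 and RELB), 4 inhibitors instead of 3 (also NFKBIE) and 1 leukocyte marker instead of 0 (ITGAX), and it ended no call. Deviations from the group means correlated at 0.46, 0.44 and 0.08 between samples of replicates 2, 3 and 4. With the untreated mean taken over replicates 2 to 4 alone they correlated at 0.52, 0.32 and 0.20. By the first measure BV6 replicates 2 and 3 correlated best with their own number and replicate 4 with untreated replicate 1 (0.28), while by the second, which leaves untreated replicate 1 out, all 3 correlated best with their own number. The shared labels stand in the sample titles, but whether they mark shared cultures is not stated. The pairing was used in the alternative with a block and not in the main fit. Counting error weighs more in CD40, TNFRSF4, TNFRSF11A, TNFRSF14 and TNFRSF1B, which had 61 counts or fewer in every sample.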
